A study of Mus musculus with 11 samples.

Results

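The AP-1 and immediate early genes were followed in hepatocytes of mice with or without a hepatocyte deletion of Xbp1. The group held 10 genes, listed by name: Fos, Fosb, Fosl2, Jun, Junb, Jund, Egr1, Ier2, Ier3 and Klf6. They are 10 of the 13303 genes that passed the filter on low counts and were tested, and none of the 10 was lost to that filter. The mice were adult males of the C57BL/6 strain. In Xbp1 LKO mice a Cre recombinase under the albumin promoter deletes Xbp1 in hepatocytes, and Xbp1 fl/fl mice are the floxed controls. Both genotypes received standard chow or the HFS diet, which is rich in fat and sugar, for at most 6 weeks, and their hepatocytes were then purified by density centrifugation. Chow feeding gave 3 Xbp1 fl/fl and 2 Xbp1 LKO libraries, each of a single mouse. HFS feeding gave 3 libraries of either genotype, each from pooled samples of 2 mice.

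AP-1 is a family of transcription factors made of paired proteins, in which a Jun protein binds a second Jun protein or a partner of the Fos or ATF families. Many of these genes belong to the immediate early genes, whose transcription rises within minutes of a signal and needs no new protein. Growth factors, cytokines and stress reach them through the MAP kinases ERK, JNK and p38. In the liver they are known for the first hours of regeneration after partial hepatectomy, and enzymatic digestion of a tissue is itself known to raise them. For that reason each gene is given here library by library.

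Total counts ran from 19191032 to 23888401 per library, and levels are given as CPM, the counts scaled to a common library size and normalized by edgeR's TMM method. Xbp1 itself lay between 95.7 and 135 CPM in the 5 Xbp1 LKO libraries and between 194 and 301 CPM in the 6 Xbp1 fl/fl libraries, so the groups did not overlap. These counts cover the whole gene and do not measure how complete the deletion is. By qPCR of a single exon, the study found almost no expression in hepatocytes of chow-fed Xbp1 LKO mice. Hepatocyte markers summed to between 39635 and 168360 CPM in each library, while macrophage markers summed to between 21.6 and 105 CPM and endothelial markers to between 30.8 and 168 CPM. Alb took at least 5.88% of the counts in each Xbp1 fl/fl library and less than that in each Xbp1 LKO library, with 1.67% in the lowest. One library stood apart in the genes described here: HFS-fed Xbp1 fl/fl replicate 3 was the lowest of its group for 7 of the 10 genes. On average over the 10 genes it lay 0.55 log2 units below the mean of its group, against 0.28 above it for each of the other two. For Klf6, Fos, Fosb, Egr1 and Ier2, a genotype difference is given with and without this library. The correlations of deviations between genes are given only with it.

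To show the sequence in front of these genes, up to 250 bases before the RefSeq transcription start (GRCm38.p6) were read for the 8 members that matched the RefSeq promoter table. Egr1 and Ier2 had no entry in it. The genes printed are Klf6, which differed between genotypes, Jun, which shares a motif with it, and Fos and Junb, which carry TGACG, the core of sites bound by ATF and CREB proteins. Each run is 5′ to 3′ on the strand of the gene, and it ends before the RefSeq start or, where GENCODE has the gene begin earlier, before that position. Capitals mark the motifs found. The Klf6 run is chr13:5861239-5861481 on the plus strand, the Jun run chr4:95052223-95052472 on the minus strand, the Fos run chr12:85473640-85473889 on the plus strand and the Junb run chr8:84978749-84978998 on the minus strand.
Klf6: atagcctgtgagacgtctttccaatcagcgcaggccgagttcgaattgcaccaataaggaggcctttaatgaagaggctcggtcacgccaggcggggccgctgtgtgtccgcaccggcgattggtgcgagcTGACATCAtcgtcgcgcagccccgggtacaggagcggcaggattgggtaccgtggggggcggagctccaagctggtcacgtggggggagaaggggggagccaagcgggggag
Jun: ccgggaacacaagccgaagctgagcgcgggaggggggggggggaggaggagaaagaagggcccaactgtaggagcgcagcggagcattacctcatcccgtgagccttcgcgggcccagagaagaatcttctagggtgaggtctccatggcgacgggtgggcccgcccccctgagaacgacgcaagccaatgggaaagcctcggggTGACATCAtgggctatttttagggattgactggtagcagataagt
Fos: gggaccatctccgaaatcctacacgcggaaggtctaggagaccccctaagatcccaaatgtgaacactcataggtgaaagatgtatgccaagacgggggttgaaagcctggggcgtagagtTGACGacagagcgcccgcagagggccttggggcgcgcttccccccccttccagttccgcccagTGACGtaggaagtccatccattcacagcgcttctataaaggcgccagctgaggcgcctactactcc
Junb: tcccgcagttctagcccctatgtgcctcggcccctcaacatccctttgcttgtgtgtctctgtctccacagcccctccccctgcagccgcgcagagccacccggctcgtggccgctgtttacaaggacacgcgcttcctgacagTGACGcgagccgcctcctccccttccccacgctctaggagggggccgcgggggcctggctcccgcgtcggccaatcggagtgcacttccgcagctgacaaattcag

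The letters TGACATCA, a variant AP-1 site that Jun and ATF2 pairs are known to bind, stood 119 to 112 bases before the start of Klf6 and 45 to 38 bases before the start of Jun. They were present on either strand in 2.93% of the 32851 promoter windows of the same length. The core TGACG was found once in the windows of Junb and Fosb and at 2 places in that of Fos, and 17.8% of all windows hold it. The TGACG core is also part of the full CRE and of the UPRE, and no 2 of the matches found overlapped. The Egr site GCGGGGGCG, bound by Egr1 and its relatives, was found in the windows of Fosb and Fosl2, and in 2.57% of all windows. The classical AP-1 site TGANTCA (6.75% of all windows), the full CRE TGACGTCA (1.55%), the UPRE TGACGTG (1.65%) and the CArG box of serum response factor (1.47%) were found in none of the 8 windows. The Fosl2 window lies wholly within the gene of GENCODE, which starts at 32135801 against 32136472 in RefSeq. For Jund the RefSeq start (70697739) lies far before that of GENCODE (70698949). Sites more than 250 bases before the RefSeq start were not read. These are matches of letters and not measurements of binding.

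Klf6 was the 1 member that edgeR called between genotypes, and DESeq2 called Ier2 as well on the HFS diet. It encodes a zinc finger factor of the Krüppel-like family that is induced early after liver injury. In GRCm38 the gene (ENSMUSG00000000078) runs on the plus strand of chromosome 13, from 5861482 to 5870394. On chow its level was 6.23, 5.78 and 4.88 CPM in the Xbp1 fl/fl libraries and 8.45 and 9.39 CPM in the Xbp1 LKO libraries. In HFS-fed mice it was 3.76, 2.95 and 4.26 CPM in Xbp1 fl/fl libraries and 9.90, 8.11 and 7.59 CPM in Xbp1 LKO libraries. All 5 Xbp1 LKO libraries were above all 6 Xbp1 fl/fl libraries, as the plot of levels by library shows. Between 58 and 243 counts per library stand behind these levels.

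The difference in Klf6 between genotypes was 2.33-fold on the HFS diet (95% interval 1.76 to 3.07), with a log2 fold change of 1.22 (standard error 0.18) and an adjusted p = 0.0046 by edgeR's quasi-likelihood test. On chow the log2 fold change was 0.66 (standard error 0.20), and the adjusted p = 0.082 missed the threshold of 0.05 in edgeR, while DESeq2 gave an adjusted p = 0.042. Averaged over both diets the log2 fold change was 0.94 (standard error 0.13, edgeR adjusted p = 0.0012). Across 19 alternative fits, the averaged value lay between 0.88 and 1.23 on the log2 scale, and its edgeR, DESeq2 or limma adjusted p stayed at or below 0.0072. Without HFS-fed Xbp1 fl/fl replicate 3, the difference on the HFS diet was 1.34 on the log2 scale (edgeR adjusted p = 0.014). In bulk RNA, fewer cells of a type and less RNA per cell cannot be told apart.

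Between diets, all 3 HFS libraries of Xbp1 fl/fl hepatocytes were below all 3 chow libraries in Klf6. The log2 fold change was -0.62 (standard error 0.19), which did not pass in edgeR (adjusted p = 0.30). In Xbp1 LKO hepatocytes it was -0.06 (95% interval -0.49 to 0.36, edgeR adjusted p = 0.92), and the libraries of both diets overlapped. The difference between the diets' genotype effects was 0.55 on the log2 scale (standard error 0.27, edgeR adjusted p = 0.82), so the effect of genotype was not shown to differ between chow and the HFS diet.

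**Figure D1:**
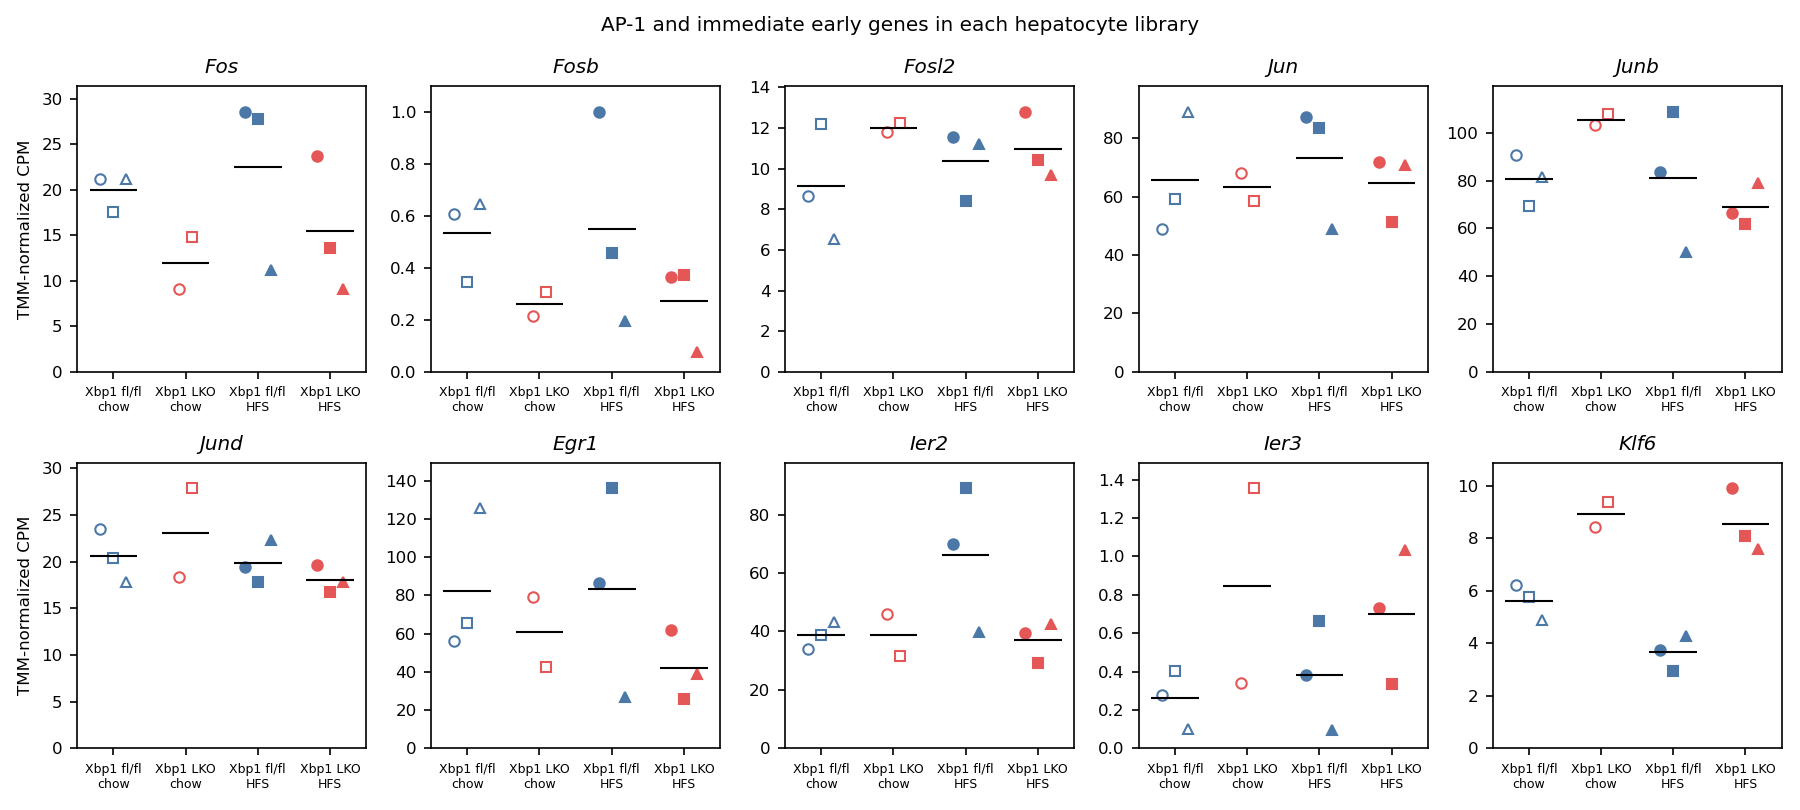
Level of each of the 10 genes in TMM-normalized CPM (vertical axis, from 0) in the 4 groups of hepatocyte libraries (horizontal axis). Each point is a library, with circles, squares and triangles for replicates 1, 2 and 3, open points for chow, filled points for the HFS diet, blue for Xbp1 fl/fl, red for Xbp1 LKO and a line at the group mean. The 5 Xbp1 LKO libraries lie at 7.59 CPM or above for Klf6 and the 6 Xbp1 fl/fl libraries at 6.23 CPM or below.

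In chow-fed mice, 0 of the 10 genes passed edgeR's threshold between genotypes, where 4.75% of all genes tested did. One member had an unadjusted p under 0.05 (background 19.3%), and DESeq2 called 1 member and limma voom 0. Under HFS feeding edgeR called 1 of 10, against 4.08% of all genes (1.92% higher and 2.16% lower), and 2 of 10 had an unadjusted p under 0.05 (background 17.5%). Averaged over diets it called 1 of 10, against 11.9%, with 3 of 10 at an unadjusted p under 0.05 (background 25.6%). Between diets it called 0 of 10 in Xbp1 fl/fl hepatocytes (0.428% of all genes) and 0 of 10 in Xbp1 LKO hepatocytes (0.0601%). At an unadjusted p under 0.05 there were 2 members (background 8.95%) and 1 member (background 12.7%), and DESeq2 and limma voom called 0 in both. The interaction of genotype and diet passed for 0 members and 0 of all genes in edgeR, with 1 member and 816 genes (6.13%) at an unadjusted p under 0.05, and for 0 members and 31 genes in DESeq2. The median log2 fold change of the 10 genes was 0.09 for genotype on chow and -0.20 for genotype on the HFS diet, beside 0.00 and 0.01 over all genes tested.

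**Figure D2:**
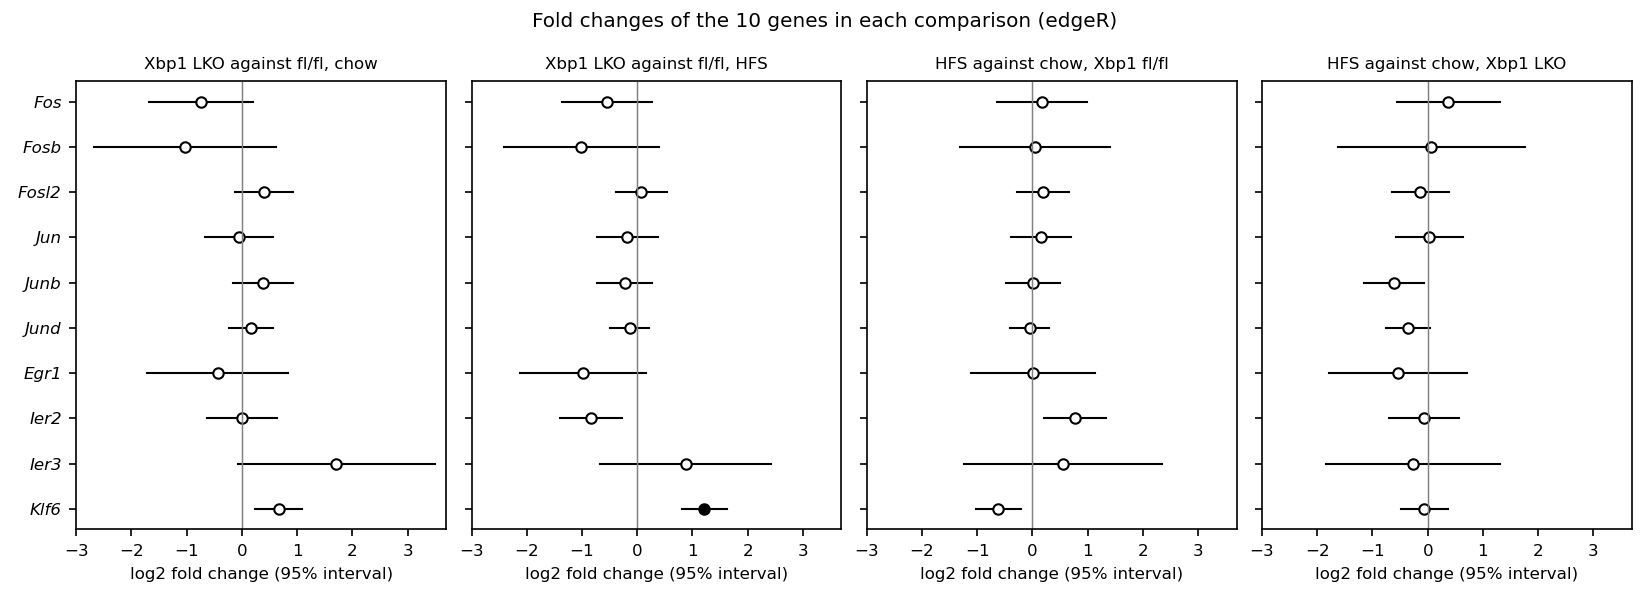
Log2 fold change of the 10 genes (horizontal axis) with its 95% interval from edgeR in 4 comparisons, 1 per panel, with the genes listed on the vertical axis. Filled points passed an adjusted p of 0.05 and open points did not, and the vertical line marks no change. Only Klf6 on the HFS diet is filled, at 1.22, and the intervals of Fosb, Egr1 and Ier3 are the widest.

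The Fos proteins pair with Jun proteins but not with each other, and none of their 3 genes here passed between genotypes. Fos (chromosome 12, 85473890 to 85477273, plus strand) was at 21.2, 17.6 and 21.2 CPM in Xbp1 fl/fl libraries on chow and at 9.13 and 14.8 CPM in chow-fed Xbp1 LKO libraries. These groups did not overlap, yet the log2 fold change of -0.74 (standard error 0.43) had an edgeR adjusted p = 0.39. With HFS feeding, Fos was at 28.5, 27.7 and 11.2 CPM in Xbp1 fl/fl and at 23.7, 13.6 and 9.12 CPM in Xbp1 LKO libraries. Here the groups overlapped, because HFS-fed Xbp1 fl/fl replicate 3 fell among the Xbp1 LKO libraries. Averaged over diets the log2 fold change of Fos was -0.64 (standard error 0.28), with an unadjusted p = 0.045 and an edgeR adjusted p = 0.18, and without that library it was -0.80 (edgeR adjusted p = 0.061), within a range of -0.86 to -0.49 over all libraries left out in turn.

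Fosb, a close relative of Fos known from neurons and bone, was near the limit of detection with 2 to 21 counts per library. More than 10 counts were reached only in Xbp1 fl/fl libraries, with 11 and 13 on chow and 21 on the HFS diet. The filter on low counts thus kept Fosb only through the genotype where it is higher, and its fold changes are descriptions. Fosb was at 0.61, 0.35 and 0.65 CPM in Xbp1 fl/fl libraries on chow. In chow-fed Xbp1 LKO libraries it was at 0.21 and 0.31 CPM, again without overlap. After HFS feeding it was at 1.00, 0.46 and 0.20 CPM and at 0.37, 0.37 and 0.08 CPM in the same order, and the groups overlapped. The log2 fold change was -1.03 on chow and -1.01 on the HFS diet, and at this depth both 95% intervals, -2.68 to 0.61 and -2.42 to 0.39, include no difference. The value on the HFS diet was -0.26 without HFS-fed Xbp1 fl/fl replicate 1 and -1.41 without replicate 3.

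Fosl2, which encodes the slower Fos partner Fra-2, was between 6.52 and 12.8 CPM in all 11 libraries. Its level was 8.66, 12.2 and 6.52 CPM in Xbp1 fl/fl libraries on chow and 11.8 and 12.2 CPM in chow-fed Xbp1 LKO libraries. The log2 fold change on chow was 0.40 (95% interval -0.12 to 0.92, edgeR adjusted p = 0.40). Under HFS feeding it was at 11.6, 8.40 and 11.2 CPM and at 12.8, 10.5 and 9.70 CPM, with a log2 fold change of 0.08 (95% interval -0.39 to 0.54). The libraries of both genotypes overlapped on both diets.

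The Jun proteins are the partners that AP-1 cannot do without. Jun (chromosome 4, 95049034 to 95052222, minus strand) was at 49.0, 59.4 and 89.1 CPM in chow-fed Xbp1 fl/fl and at 68.1 and 58.4 CPM in chow-fed Xbp1 LKO libraries. In HFS-fed mice it was at 87.3, 83.5 and 48.9 CPM and at 71.9, 51.2 and 70.9 CPM. The genotypes overlapped on both diets, with log2 fold changes of -0.06 (95% interval -0.67 to 0.56) and -0.18 (95% interval -0.73 to 0.37), and both turn positive when libraries are scaled by their totals. Jun overlaps the antisense gene Junos, which had 103 counts over all libraries, and whether the counting used strand is not settled by the sources used here.

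Junb, which encodes a Jun protein that often restrains Jun, was the member with the highest level per kilobase. The gene spans 84974484 to 84978718 on the minus strand of chromosome 8, and an exon of it overlaps Prdx2 on the other strand, so reads of the 2 genes may be mixed. Its level was 90.7, 69.6 and 81.7 CPM in Xbp1 fl/fl libraries on chow and 103 and 108 CPM in chow-fed Xbp1 LKO libraries. It was 83.8, 109 and 50.3 CPM in HFS-fed Xbp1 fl/fl and 66.4, 61.8 and 79.2 CPM in HFS-fed Xbp1 LKO libraries. On chow both Xbp1 LKO libraries were above the controls, and in Xbp1 LKO hepatocytes all 3 HFS libraries were below both chow libraries. The first difference was 0.39 on the log2 scale (standard error 0.25, edgeR adjusted p = 0.44) and the second -0.61 (standard error 0.25, unadjusted p = 0.031, edgeR adjusted p = 0.34). The interaction was -0.62 (standard error 0.34, edgeR adjusted p = 0.83).

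Jund, the Jun gene that is expressed steadily in many resting cells, had the lowest coefficient of variation of the 10 genes, 16.2% over the 11 libraries. On chow it was at 23.5, 20.3 and 17.8 CPM in Xbp1 fl/fl and at 18.4 and 27.8 CPM in Xbp1 LKO libraries. In HFS-fed mice it was at 19.4, 17.8 and 22.3 CPM in Xbp1 fl/fl and at 19.7, 16.8 and 17.8 CPM in Xbp1 LKO libraries. Chow-fed Xbp1 LKO replicate 2 thus stood above the other 10 libraries, which ran from 16.8 to 23.5 CPM. No comparison passed, with log2 fold changes from -0.35 (diet in Xbp1 LKO, edgeR adjusted p = 0.44) to 0.17 (genotype on chow, edgeR adjusted p = 0.67).

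Without overlap between groups, 2 members were higher (Junb and Klf6) and 2 lower (Fos and Fosb) in chow-fed Xbp1 LKO than in chow-fed Xbp1 fl/fl hepatocytes. Fosb passed the filter on low counts only through Xbp1 fl/fl libraries, so its place among the lower genes was in part set by that filter. Over all genes tested, 15.4% were higher and 15.9% lower without overlap, so that 2 of 10 in each direction was near the background. With HFS feeding 1 member was higher (Klf6, background 13.6%) and 0 were lower (background 12.5%). With the HFS diet 1 member was lower in Xbp1 fl/fl (Klf6, background 7.34%) and 1 in Xbp1 LKO hepatocytes (Junb, background 14.4%), and 0 were higher in either (background 6.33% and 16.7%). Over both diets, 1 of 10 was higher in all 5 Xbp1 LKO libraries than in any Xbp1 fl/fl library (background 3.19%) and 0 were lower (background 4.34%).

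Egr1 had the widest spread across the 11 libraries among the members with more than 50 counts in each, with a coefficient of variation of 54.3%. Egr1, a zinc finger factor downstream of ERK, was at 56.4, 65.4 and 126 CPM in chow-fed Xbp1 fl/fl and at 79.4 and 42.6 CPM in chow-fed Xbp1 LKO libraries. After HFS feeding it was at 86.4, 136 and 27.0 CPM in Xbp1 fl/fl and at 61.9, 25.7 and 38.8 CPM in Xbp1 LKO libraries. The spread within HFS-fed Xbp1 fl/fl mice was thus wider than the distance between the genotypes. The log2 fold change on the HFS diet was -0.98 (95% interval -2.12 to 0.16, edgeR adjusted p = 0.38), and it was -1.40 (edgeR adjusted p = 0.15) without HFS-fed Xbp1 fl/fl replicate 3 and -0.43 (edgeR adjusted p = 0.78) without replicate 2 of that group.

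Ier2, a small nuclear protein of the immediate early response, was at 34.1, 38.9 and 43.1 CPM in chow-fed Xbp1 fl/fl and at 45.9 and 31.6 CPM in chow-fed Xbp1 LKO libraries. Under HFS feeding it was at 69.8, 88.9 and 39.9 CPM in Xbp1 fl/fl and at 39.5, 29.1 and 42.5 CPM in Xbp1 LKO libraries. Replicates 1 and 2 of the HFS-fed Xbp1 fl/fl group stood above all other libraries, and replicate 3 stood among them. The genotype difference on the HFS diet was -0.84 on the log2 scale (standard error 0.26), with an edgeR adjusted p = 0.10 and a DESeq2 adjusted p = 0.026. Without HFS-fed Xbp1 fl/fl replicate 3 it was -1.10, with an edgeR adjusted p = 0.027, and without replicate 2 of that group it was -0.57, with an edgeR adjusted p = 0.31. The call of Ier2 thus moved with single libraries and with the tool. The diet difference in Xbp1 fl/fl hepatocytes was 0.77 (standard error 0.26, edgeR adjusted p = 0.36), and the interaction -0.84 (standard error 0.38, unadjusted p = 0.0499, edgeR adjusted p = 0.81).

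Ier3, a stress-induced regulator of cell survival, had only 2 to 31 counts per library. Its level was 0.28, 0.40 and 0.10 CPM in Xbp1 fl/fl libraries on chow and 0.34 and 1.35 CPM in chow-fed Xbp1 LKO libraries. In HFS-fed mice it was 0.38, 0.66 and 0.10 CPM and 0.73, 0.33 and 1.04 CPM. The groups overlapped on both diets. Averaged over diets the log2 fold change was 1.29 (standard error 0.54, unadjusted p = 0.035, edgeR adjusted p = 0.16), and without chow-fed Xbp1 LKO replicate 2 it was 0.64.

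Levels between genes were compared per kilobase of annotated exon, as the median over the 11 libraries. Junb was highest at 35.5 CPM per kilobase, followed by Ier2 (26.2), Jun (21.4), Egr1 (13.8), Jund (11.7) and Fos (7.47). Klf6 (1.42), Fosl2 (1.16), Ier3 (0.337) and Fosb (0.0587) lay far below. Across the 11 libraries the ranges of neighbours in this order overlapped with the exception of Fos and Klf6, where the lowest Fos value (3.88) was above the highest Klf6 value (2.25).

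The members were then followed library by library. Each library was expressed as its deviation from the mean of its own group on the log2 scale, which leaves out genotype and diet. Fos, Fosb, Jun, Junb, Egr1 and Ier2 deviated together, with a positive Pearson correlation in 15 of 15 pairs over the 11 libraries and a median of 0.58. The closest were Egr1 with Ier2 (0.93) and Jun with Egr1 (0.90). Among Fosl2, Jund, Ier3 and Klf6, 5 of 6 pairs were positive with a median of 0.38, and between both sets the median was -0.15. The sets were drawn after these values were seen, the points share libraries and scaling, and the correlations are descriptions without a test. They were not computed without HFS-fed Xbp1 fl/fl replicate 3, which had the largest deviation for Fos, Jun, Junb, Egr1 and Ier2.

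**Figure D3:**
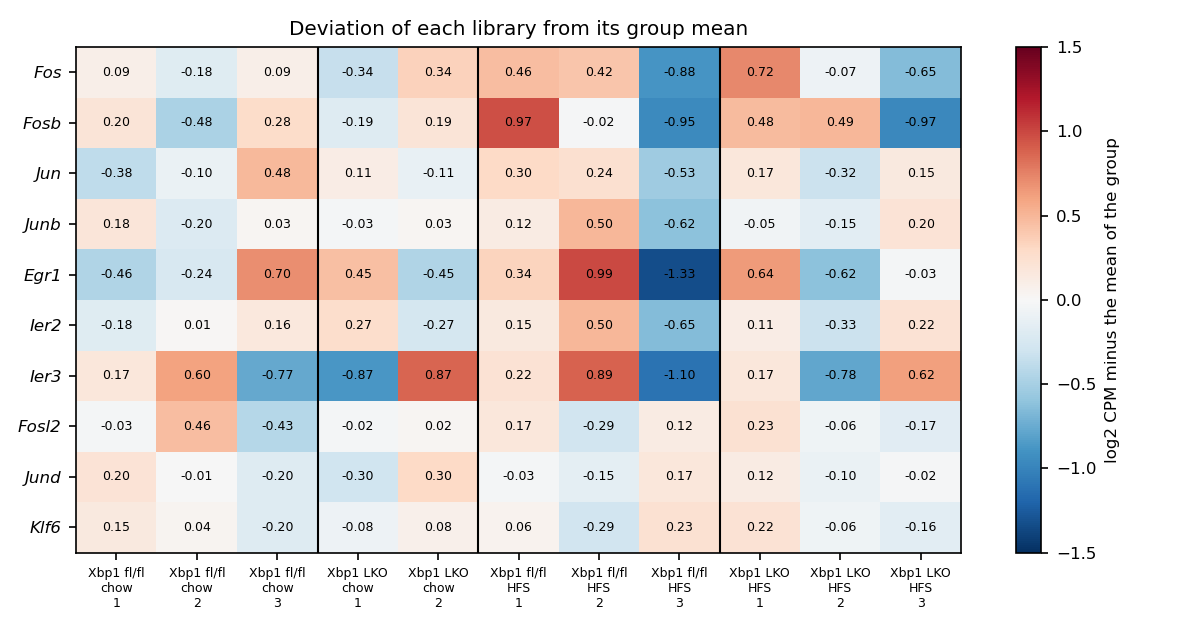
Deviation of each of the 11 libraries (columns, with the 4 groups parted by lines) from the mean of its group, in log2 CPM (prior count 2), for each of the 10 genes (rows). Red is above and blue below the group mean, and the number in each cell is the deviation. HFS-fed Xbp1 fl/fl replicate 3 is the lowest of its group for Fos, Fosb, Jun, Junb, Egr1, Ier2 and Ier3, with Egr1 at -1.33.

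HFS-fed Xbp1 fl/fl replicate 3 was the lowest of its group for Fos, Fosb, Jun, Junb, Egr1, Ier2 and Ier3, and the highest for Jund and Klf6. In the HFS-fed Xbp1 LKO group, replicate 1 was the highest for 6 of the 10 genes and the lowest for 0, with a mean deviation of 0.28. The sum of 17 heat shock and dissociation genes deviated with a Pearson correlation of -0.02 to the mean of the members' standardized deviations over 11 libraries. Such sums weigh the most abundant genes: in chow-fed Xbp1 fl/fl replicate 1, Hsp90ab1 (1068 CPM) and Sqstm1 (510 CPM) led the 2365 CPM. Whether isolation stress shaped the pattern was not tested. The sum of 42 other immediate early genes had a correlation of 0.59 and that of the kinase feedback inhibitors 0.49. The inhibitor sum was mostly Errfi1, with 1644 of 1793 CPM in chow-fed Xbp1 fl/fl replicate 1, so 0.49 does not describe the inhibitors as a class. Among markers of other cells, the correlation was 0.53 for stellate cells, 0.18 for endothelial cells, 0.16 for macrophages, -0.21 for cholangiocytes, -0.28 for neutrophils and -0.73 for lymphocytes. The lymphocyte sum was at most 0.613 CPM and the neutrophil sum at most 4.33 CPM in any library, near the limit of detection. The part of these cells in the pattern was not tested. The 5 genes whose deviations were most like the mean of the members, among 11122 genes with at least 1 CPM on average, were Gm5970 (Pearson correlation 0.95), Usp35 (0.94), Impdh2 (0.92), Serpina1e (0.91) and Mup-ps21 (0.91). Serpina1e and Mup-ps21 have near-identical copies whose reads could be split among them.

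The other genes of the pathway were read from lists chosen with earlier results of these data known. Averaged over diets, 5.25% of all genes tested were higher in Xbp1 LKO hepatocytes and 6.64% lower, the background of the counts that follow. Of 10 tested partners of AP-1 outside the group (15 listed), 4 were higher and 1 lower in Xbp1 LKO hepatocytes averaged over diets, and the count of 5 ranged from 2 (without chow-fed Xbp1 LKO replicate 2) to 5 when 1 library was left out. Atf3, an immediate early member of the ATF family, was at 0.50 to 1.21 CPM in the 6 Xbp1 fl/fl libraries. It was at 6.53 and 43.0 CPM in chow-fed and at 6.72, 3.24 and 9.43 CPM in HFS-fed Xbp1 LKO libraries. Its averaged log2 fold change was 3.95 (standard error 0.50, edgeR adjusted p = 0.00056), and it passed in 19 of 19 alternatives. Ddit3, which encodes CHOP, rose by 3.13 on the log2 scale (standard error 0.45, edgeR adjusted p = 0.0012), from 2.95 to 6.67 CPM in Xbp1 fl/fl libraries to 13.5 to 132 CPM in Xbp1 LKO libraries. The highest value of both genes was that of chow-fed Xbp1 LKO replicate 2, the library with the highest Jund and Ier3. Without it the averaged log2 fold change was 2.98 for Atf3 (edgeR adjusted p = 0.0011) and 2.27 for Ddit3 (edgeR adjusted p = 0.0038). Nfe2l2, the oxidative stress factor Nrf2, was higher as well, by 0.38 (edgeR adjusted p = 0.018), passing in 17 of 19 alternatives.

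Of 35 tested immediate early genes outside the group (42 listed), 8 were higher and 0 lower in Xbp1 LKO hepatocytes averaged over diets, where 5.25% of all genes were higher and 6.64% lower. Leaving out 1 library gave 5 to 8. Their median log2 fold change was 0.30, beside 0.01 over all genes. Gadd45a, a growth arrest and DNA damage gene, was at 3.58 to 7.53 CPM in Xbp1 fl/fl and at 9.47 to 17.7 CPM in Xbp1 LKO libraries, a log2 fold change of 1.25 (standard error 0.18, edgeR adjusted p = 0.0014). Pim1, a survival kinase, rose by 0.80 (edgeR adjusted p = 0.0027), and Rhob, a stress-induced small GTPase, by 0.60 (edgeR adjusted p = 0.0063). These 3 genes passed in 19 of 19 alternatives each.

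**Figure D4:**
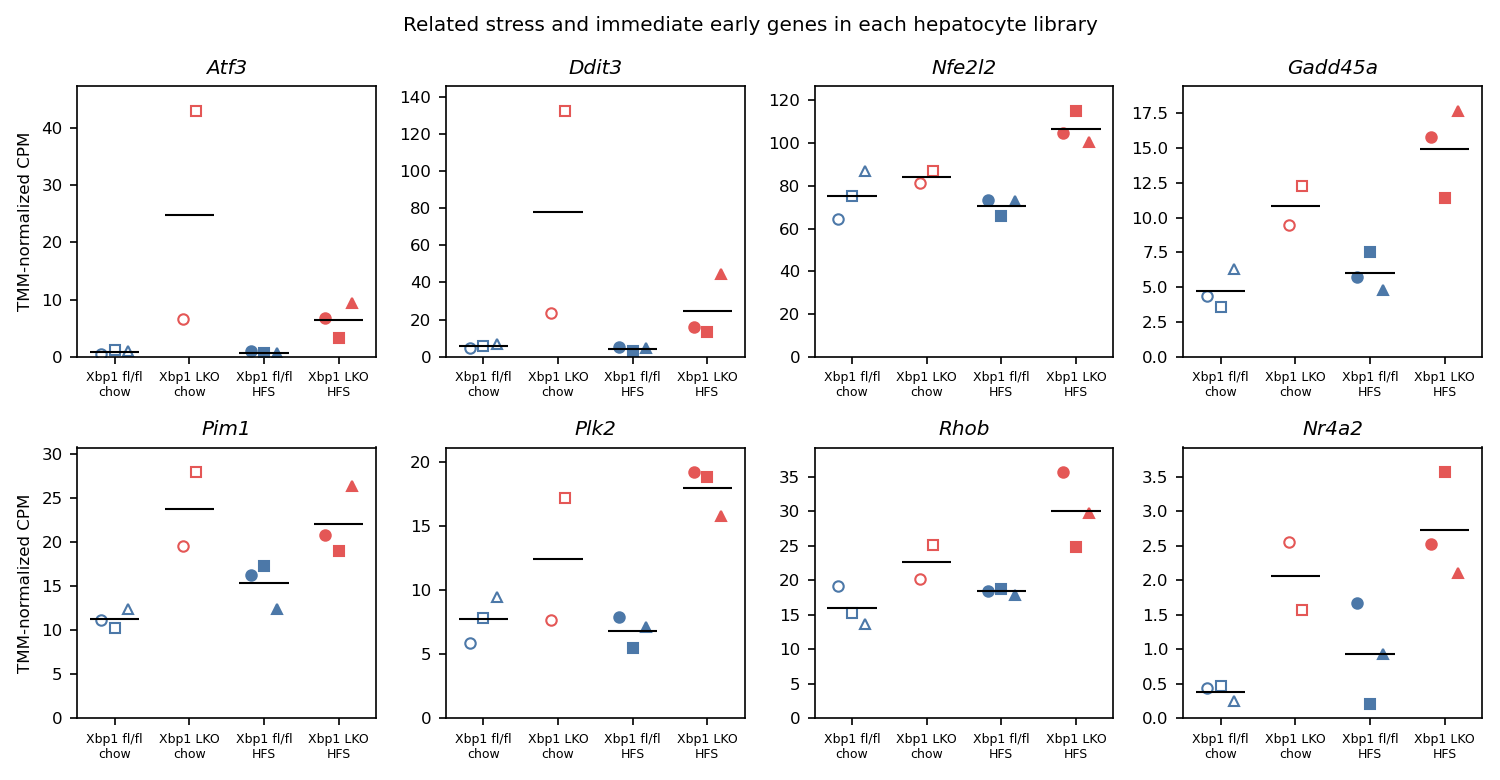
Level of 8 genes related to AP-1 or the immediate early response, in TMM-normalized CPM (vertical axis, from 0), in the 4 groups of hepatocyte libraries (horizontal axis). Points, colours and lines are as for the plot of the 10 genes: each point is a library, circles, squares and triangles are replicates 1, 2 and 3, open is chow, filled is the HFS diet, blue is Xbp1 fl/fl, red is Xbp1 LKO and the line is the group mean. Atf3 and Ddit3 reach 43.0 and 132 CPM in chow-fed Xbp1 LKO replicate 2.

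Upstream of AP-1, 1 of 31 tested kinases and factors was higher and 1 lower in Xbp1 LKO hepatocytes averaged over diets. This was not above the background of 5.25% higher and 6.64% lower over all genes. Map2k1, the ERK kinase MEK1, was higher by 0.28 on the log2 scale (standard error 0.06, edgeR adjusted p = 0.016). Mapk8, the Jun kinase JNK1, was lower by a log2 fold change of -0.29 (standard error 0.08, edgeR adjusted p = 0.045), a call that 5 of 19 alternatives kept. Of 14 tested inhibitors that feed back on these kinases (16 listed), 0 passed in this comparison in edgeR, with 7 at an unadjusted p under 0.05 and 1 called by DESeq2. Left-out libraries gave 0 to 3, with 3 without chow-fed Xbp1 LKO replicate 1. With HFS feeding 1 of the 14 passed, the kinase phosphatase Dusp10, where 1.92% of all genes were higher. Its log2 fold change was 1.08 (standard error 0.22, edgeR adjusted p = 0.021). The call was lost without HFS-fed Xbp1 fl/fl replicate 1 or 3 or HFS-fed Xbp1 LKO replicate 2 (edgeR adjusted p from 0.084 to 0.10). The counts of these kinases and factors that passed averaged over diets ranged from 0 to 4 when 1 library was left out, with 0 without chow-fed Xbp1 LKO replicate 2.

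Downstream, 5 of 16 tested AP-1 target genes (28 listed) were higher and 0 lower averaged over diets, and without chow-fed Xbp1 LKO replicate 2 the count was 1. Over all genes tested, 5.25% were higher and 6.64% lower in this comparison. The median log2 fold change of the 16 genes was 0.010, with 9 positive and 7 negative, beside 0.011 over all genes. As a class they were thus not shifted. Bcl2l11, which encodes the death protein BIM, was higher by 0.68 (standard error 0.12, edgeR adjusted p = 0.0043). Areg, an EGF receptor ligand, had 0 counts in all 6 Xbp1 fl/fl libraries and was at 1.06, 1.52 and 1.27 CPM in HFS-fed Xbp1 LKO libraries, at least 8.70-fold higher than a floor of 3 counts per library. In the chow-fed Xbp1 LKO libraries it was at 0 and 0.568 CPM. The filter on low counts thus kept Areg only through Xbp1 LKO libraries. Its call and its place among the 5 were in part set by that filter. The call of Areg on the HFS diet (edgeR adjusted p = 0.039) held in 11 of 20 alternatives, and DESeq2 gave an adjusted p = 0.13.

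Of 12 genes under the PERK branch of the unfolded protein response, which include Atf3 and Ddit3, 6 were higher and 0 lower averaged over diets, and 5 to 8 when 1 library was left out. The background over all genes was 5.25% higher and 6.64% lower. Asns, the asparagine synthetase that ATF4 induces, was at 1.37 to 17.3 CPM in Xbp1 fl/fl and at 23.6 to 152 CPM in Xbp1 LKO libraries. Its averaged log2 fold change was 3.03 (standard error 0.47, edgeR adjusted p = 0.0018). Of 16 tested heat shock and dissociation genes (17 listed), 0 passed between genotypes in edgeR, on either diet or averaged. At an unadjusted p under 0.05 there were 6 on chow, 0 on the HFS diet and 5 averaged, and DESeq2 called 0, 0 and 1. Without chow-fed Xbp1 LKO replicate 1, 2 passed on chow and 2 averaged. On chow 14 of the 16 had a positive log2 fold change, with a median of 0.28 beside 0.00 over all genes. Their summed level was 2365 to 2769 CPM in chow-fed Xbp1 fl/fl, 2714 and 3154 CPM in chow-fed Xbp1 LKO, 2157 to 2767 CPM in HFS-fed Xbp1 fl/fl and 2481 to 2794 CPM in HFS-fed Xbp1 LKO libraries.

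Markers of other cells moved with the groups in part. After HFS feeding the 12 macrophage markers summed to 42.0 to 59.4 CPM in Xbp1 fl/fl and to 59.6 to 105 CPM in Xbp1 LKO libraries, and 0 of 12 passed in edgeR, with 1 at an unadjusted p under 0.05 and 0 called by DESeq2. On chow they summed to 21.6 to 93.7 CPM and to 25.4 and 36.8 CPM, where 93.7 CPM was Xbp1 fl/fl replicate 1 and the other two Xbp1 fl/fl libraries were at 21.6 and 22.3 CPM, below both Xbp1 LKO libraries. The 10 endothelial markers summed to 98.1 to 168 CPM in HFS-fed Xbp1 fl/fl and to 76.9 to 136 CPM in HFS-fed Xbp1 LKO libraries, and on chow to 49.4 to 124 CPM and to 30.8 and 39.5 CPM. Of them, 0 passed on chow in edgeR, with 9 at an unadjusted p under 0.05 (background 19.3%) and 6 called by DESeq2. Averaged over diets edgeR called 3 lower (background 6.64%) and DESeq2 7. The 10 stellate cell markers summed to 32.1 to 58.2 CPM and to 37.2 to 76.9 CPM on the HFS diet. On chow they summed to 18.3 to 61.5 CPM in Xbp1 fl/fl and to 13.4 and 15.8 CPM in Xbp1 LKO libraries, without overlap, and 0 passed in edgeR, with 4 at an unadjusted p under 0.05 and 2 called by DESeq2. Cholangiocyte markers summed to at most 16.3 CPM, neutrophil markers to at most 4.33 CPM and lymphocyte markers to at most 0.613 CPM in any library, and no marker in these lists was at 0 in all libraries. The part of these cells in the levels of the 10 genes was not tested.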

How the data were processed

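RNA-seq was measured in 11 hepatocyte libraries, 1 count table each. The authors deposited raw counts per Ensembl gene, whole numbers without normalization, with a total of 19191032 to 23888401 per library. Sources differ on how they were made: the submitters' processing notes name cutadapt 1.13, STAR, HTSeq 0.6.1p1, DESeq2 and mm10, and the study's methods name kallisto and tximport. The strand setting is not given in the sources used here. Libraries were grouped by genotype and diet from their labels. The members and lists were chosen with earlier results of these data known.

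Genes passing filterByExpr (minimum count 10) were fitted with edgeR 4.0.16 in R 4.3.3 (TMM, 1 factor of 4 groups, quasi-likelihood test), and p-values were adjusted by Benjamini-Hochberg over all 13303 genes at a threshold of 0.05. DESeq2 1.42.0, limma 3.58.1 (voom with sample weights), other scalings, filters, a replicate block and leaving out each library were alternatives. A call without overlap means that every library of one group lay beyond every library of the other. Of each list, the 3 genes with the smallest p among those called were named (1 of them is not reported here), and of genes like the members, the 5 with the highest correlation. The scripts were tested on simulated data. Whether same-numbered libraries pair was checked from their deviations: 4 of 15 pairs correlated above 0.1, so the numbers were not taken as pairs. Replicates differed by more than counting noise. Chow libraries are separate mice and HFS libraries pools, so p-values measure the spread between these. Pooling went with diet throughout, so diet and pooling cannot be told apart in the diet comparisons or the interaction. Promoter sequences are RefSeq's (GRCm38.p6), and gene positions GENCODE M21's.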

Additional observations from a re-analysis of the deposited data

How the results depend on the processing

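The higher Klf6 level in HFS-fed Xbp1 LKO hepatocytes passed in 20 of 20 alternatives, and that averaged over diets in 19 of 19. The chow difference passed in 2 of 20 (library totals and DESeq2). Scaling by library totals moved the median of all genes by 0.33 (chow), 0.26 (HFS) and 0.29 (average) on the log2 scale, and gave 3000, 1483 and 5802 genes called between genotypes, against 632, 543 and 1582, with 2 members on chow and 3 averaged. With it the log2 fold changes of Jun (0.27 on chow, 0.072 on HFS), Junb (0.030 on HFS) and Jund (0.12 on HFS) turned positive, and that of Jun with diet in Xbp1 LKO hepatocytes turned to -0.020. Without a filter, 26016 genes entered and the median prior degrees of freedom rose from 4.39 to 311.2. That fit called 1507 (chow), 1438 (HFS), 499 (diet, fl/fl), 722 (diet, LKO), 269 (interaction) and 1003 genes (diet averaged), with 1, 4, 1, 1, 1 and 1 members, and 5 members for genotype averaged. DESeq2 called 1115, 987, 175, 210, 31 and 522 genes in the same order, and 1 member on chow and 2 on HFS. The main counts for the diet comparisons were 57 (fl/fl), 8 (LKO) and 146 (averaged), and 0 for the interaction. limma voom called 410 (chow), 1101 (HFS) and 1 gene (diet, LKO). Fits of only the 2 groups compared called 233 (chow) and 0 genes (diet, LKO; 8 in the fit of all groups), for which the smaller number of samples is part of the construction.

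With the replicate block, 19 genes (title numbers) or 53 (file numbers) passed for diet in Xbp1 LKO hepatocytes, and the block changed no call of the 10 genes in any comparison. Of the other genes followed across the alternatives, Mapk8 averaged over diets was lost under both numberings (adjusted p 0.10 and 0.098), as were Gadd45a on chow (0.056 and 0.062), Zfp36l2 on chow (0.088 and 0.10), Areg on HFS (0.067 and 0.067) and Mcl1 with diet averaged (0.086 and 0.096). Under the title numbers alone, Xbp1 on chow (0.054), Ddit3 on HFS (0.060) and Spry4 with diet averaged (0.058) were lost, and under the file numbers alone Gadd45b with diet averaged (0.056). Members near 0 changed sign: with diet in Xbp1 fl/fl hepatocytes under the replicate block, the block by file numbers and voom, Fosb was -0.14, -0.084 and -0.10, Junb -0.018, -0.013 and -0.11, and Egr1 -0.040, -0.11 and -0.14, while Ier3 was -0.074 under voom. Ier2 on chow was -0.0013 with RLE, -0.046 with the block and -0.00016 with DESeq2. Jun on chow was 0.11 with voom, and with diet in Xbp1 LKO hepatocytes -0.0024 with the block and -0.037 with voom, where Ier3 was 0.10 with the block. The cause of these changes was not tested.

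With 1 library left out, the genes called ranged from 69 (without chow-fed LKO replicate 2) to 762 on chow, 184 (without HFS-fed LKO replicate 2) to 662 on HFS, 846 (without chow-fed LKO replicate 2) to 1735 averaged, 6 (without HFS-fed fl/fl replicate 3) to 59 for diet in fl/fl, 0 (without HFS-fed fl/fl replicate 3) to 36 for diet in LKO and 58 (without HFS-fed LKO replicate 2) to 266 for diet averaged. Members called ranged from 1 to 2 on HFS and averaged, with Ier2 added without HFS-fed fl/fl replicate 3. Sign changes on the log2 scale arose on chow for Jun (-0.23 to 0.22), Jund (-0.16 to 0.44), Egr1 (-0.96 to 0.0021) and Ier2 (-0.29 to 0.25), and on HFS for Fosl2 (-0.054 to 0.16) and Junb (-0.48 to 0.043). For diet in fl/fl they arose for Fos (-0.038 to 0.49), Fosb (-0.71 to 0.44), Fosl2 (-0.0026 to 0.46), Jun (-0.020 to 0.43), Junb (-0.27 to 0.26), Jund (-0.14 to 0.059), Egr1 (-0.54 to 0.45) and Ier3 (-0.082 to 1.01). For diet in LKO they arose for Fos (-0.064 to 0.77), Fosb (-0.24 to 0.50), Jun (-0.068 to 0.17), Ier2 (-0.30 to 0.22), Ier3 (-0.95 to 1.03) and Klf6 (-0.18 to 0.022). The counts of the other lists with each library left out were chosen after seeing the data. Fosb and Ier3, with 2 counts in their lowest libraries, are limited by depth.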
